A study of Homo sapiens with 16 samples.

Results

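The genes described here are 41 members of the cellular response to low oxygen and of glycolysis, followed in cancer cells with and without the leptomeningeal derivation and with and without LCN2-targeting hairpins. They were taken by gene symbol from 2 tables of gene expression, one with 19454 genes for the lung cancer line PC9 and one with 17954 genes for the breast cancer line MDA231. All 41 were found in both tables, and all 41 had a mean value of at least 10 in each. Of the 41, 17 are enzymes that act on the sugars of glycolysis or regulate those steps, and 24 are HIF subunits, oxygen sensors and other targets of the hypoxia-inducible factors (HIFs). These 24 are counted below as the other HIF targets, although HIF1A and EPAS1 among them are HIF subunits. The symbols were listed by function, not by a measured value, although earlier results from the same libraries were known when the list was made.

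The study profiled polyadenylated RNA from cells grown in dishes, with 2 libraries in each of 4 groups per line and 16 libraries in all. In each line, 3 groups are the leptomeningeal metastatic derivative (LeptoM) transduced with a lentiviral short hairpin: shLCN2_1 or shLCN2_2, both aimed at Lipocalin-2 (LCN2), an iron-binding secreted protein, or the control hairpin shCTL. The fourth group is the parental line, for which the labels name no hairpin. LeptoM shCTL set against parental cells therefore joins the metastatic derivation with transduction, and these cannot be told apart. Both hairpins were compared with the same shCTL libraries, so the hairpin comparisons share their controls. The oxygen level of the cultures is not given in the sources used here. Nor do the labels say that libraries of 1 group were grown apart, so p-values measure a spread between libraries that may be technical.

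HIFs are transcription factors made of an oxygen-regulated alpha subunit and a stable partner. In oxygen, prolyl hydroxylases of the EGLN family mark the alpha subunit for destruction, a reaction that also needs iron. When oxygen or iron is short, the alpha subunit persists, mostly without a change in its own mRNA, and the factor binds short motifs in promoters of genes for glucose import, glycolysis, lactate export, blood vessel growth, pH control and mitophagy. Several glycolytic enzymes are also abundant household proteins in growing cancer cells whatever the oxygen supply.

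The promoters of most of these genes hold sequence matches to the core of the motif that HIFs bind, and binding itself was not measured. The motif core was searched as ACGTG or GCGTG on either strand (CACGT or CACGC where it lies on the reverse strand) in RefSeq windows of GRCh38.p14 from 250 bases before to 50 bases after each transcript start. Windows were given for 37 of the 41 genes, and SLC2A3, VEGFA, BNIP3L and NDRG1 were not among them. At least 1 match lay in a window of 34 of the 37 genes (91.9%), set beside 52.4% of 27305 genes with any window. Counted by window, 74.6% of the 63 windows of the members held a match, set beside 48.4% of 35116 windows, and the shares were 71.9% for the enzymes and 77.4% for the other HIF targets. Of the 37 genes, 24 have 1 window and 13 have more, and base composition was not matched, so these shares are a description. The windows below are shown because BNIP3, PGK1 and LDHA were lower in LeptoM shCTL than in parental cells of both lines, ALDOC moved in opposite directions in the lines, and CA9 is the member most used as a hypoxia marker. Capitals mark the motif, and the palindrome CACGTG holds a match on each strand.
BNIP3 (chr10:131981874-131982173, minus strand, 6 matches at 5 separate sites) is written in the sense of the gene, as are the others.
BNIP3: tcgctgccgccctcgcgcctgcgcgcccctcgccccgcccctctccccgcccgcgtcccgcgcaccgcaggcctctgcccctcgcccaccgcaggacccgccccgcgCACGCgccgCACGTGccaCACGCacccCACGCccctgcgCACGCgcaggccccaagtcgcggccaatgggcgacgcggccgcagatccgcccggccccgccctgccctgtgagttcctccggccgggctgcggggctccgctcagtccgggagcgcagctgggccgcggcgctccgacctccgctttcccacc
PGK1 (chrX:78103998-78104297, plus strand) held 4 matches.
PGK1: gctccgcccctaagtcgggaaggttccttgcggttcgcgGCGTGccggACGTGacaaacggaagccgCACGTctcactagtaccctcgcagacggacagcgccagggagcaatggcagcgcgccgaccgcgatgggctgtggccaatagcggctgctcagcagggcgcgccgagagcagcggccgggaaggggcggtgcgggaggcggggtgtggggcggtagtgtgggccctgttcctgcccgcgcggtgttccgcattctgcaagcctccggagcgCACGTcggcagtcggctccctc
LDHA (chr11:18394313-18394612, plus strand) held 6 matches at 4 separate sites.
LDHA: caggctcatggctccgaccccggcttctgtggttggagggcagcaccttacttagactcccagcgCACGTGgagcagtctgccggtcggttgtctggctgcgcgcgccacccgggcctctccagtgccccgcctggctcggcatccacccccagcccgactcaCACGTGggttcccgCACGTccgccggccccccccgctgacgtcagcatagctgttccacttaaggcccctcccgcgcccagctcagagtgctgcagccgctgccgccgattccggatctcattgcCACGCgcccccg
ALDOC (chr17:28576846-28577145, minus strand) held 5 matches at 4 separate sites.
ALDOC: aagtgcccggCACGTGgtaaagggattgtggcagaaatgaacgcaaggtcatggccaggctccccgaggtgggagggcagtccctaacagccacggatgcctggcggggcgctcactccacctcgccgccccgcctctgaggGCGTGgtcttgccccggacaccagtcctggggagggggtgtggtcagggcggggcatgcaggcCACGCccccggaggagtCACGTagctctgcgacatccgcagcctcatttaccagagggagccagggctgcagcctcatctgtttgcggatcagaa
CA9 (chr9:35673678-35673977, plus strand) held 1 match, close to the transcript start.
CA9: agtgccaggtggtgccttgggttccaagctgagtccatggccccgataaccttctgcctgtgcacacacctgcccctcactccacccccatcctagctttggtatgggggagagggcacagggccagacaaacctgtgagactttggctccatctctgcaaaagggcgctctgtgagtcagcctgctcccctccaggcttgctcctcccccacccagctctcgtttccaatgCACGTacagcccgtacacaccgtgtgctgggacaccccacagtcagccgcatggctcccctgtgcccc

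Values are reads per gene divided by a size factor of each library, called normalized reads below, and are comparable only within a table. PC9 libraries held 36796098 to 51759154 gene reads, MDA231 LeptoM libraries 41751486 to 49050069, and the MDA231 parental libraries 11592790 and 11613984. The targeted gene was checked first. In PC9, LCN2 had 3575 and 7046 normalized reads with shLCN2_1 and 21415 and 18861 with shLCN2_2, against 51004 and 49615 with shCTL (log2 fold changes -3.33 and -1.32, both called), and parental cells had 21140.4 and 23248. In MDA231, LCN2 had 6.53 and 5.79 normalized reads with shLCN2_1 and 4.31 and 4.93 with shLCN2_2, against 19.3 and 13.7 with shCTL and 8.51 and 2.98 in parental cells. LCN2 was thus near the lower limit of counting in every MDA231 group, and the hairpin groups of MDA231 had little LCN2 mRNA to lose. PC9 libraries had 19942 to 28434 normalized reads of the epithelial cadherin CDH1, and MDA231 libraries had 174830 to 225347 of vimentin (VIM) and 0 to 7.15 of CDH1, as is known of these lines. Of 5 macrophage and leukocyte markers 3 were in the tables, PTPRC at 7.79 to 47.2 in PC9 and 0 to 8.36 in MDA231. With CSF1R and ITGAM they summed in PC9 to 260.1 and 391 with shLCN2_1, 1147 and 1195 with shLCN2_2, 587 and 564 with shCTL and 803 and 878 in parental cells, and in MDA231 to 20.9 to 53.4, and their part in the results was not tested.

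Differences are given as log2 fold changes on the log2(value + 1) scale with standard errors, from limma across all genes of a table, and a gene is called where its Benjamini-Hochberg adjusted p over all genes tested is below 0.05. With 2 libraries against 2, an exact permutation test of 1 gene could not go below p = 0.333, so every call rests on the spread that limma shares across genes.

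In PC9, more of the members were lower than higher in LeptoM shCTL cells relative to parental cells, with SLC2A3, CA9, BNIP3 and PDK1 the furthest below. Of the 41 members, 5 rose, 19 fell and 17 were not called. The share that fell was 46.3%, beside 21.8% of all 15650 genes tested, the share that rose was 12.2%, beside 23.8%, and the share called either way was 58.5%, beside 45.6%. The median log2 fold change was -0.21 over the enzymes (3 rose, 9 fell, 5 not called) and -0.25 over the other HIF targets (2 rose, 10 fell, 12 not called), beside 0.01 over all genes. These are bulk libraries, so less RNA in every cell and fewer cells that express a gene cannot be told apart.

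The alpha subunits themselves were not called. HIF1A had 18664 and 19017 normalized reads in PC9 LeptoM shCTL libraries, against 23488 and 22576 in parental libraries, a log2 fold change of -0.29 ± 0.10 (SE) with a limma adjusted p of 0.0503. EPAS1, the alpha subunit of the related factor best known from endothelium and kidney cancer, had 19529 and 19382 against 18834 and 19182, a log2 fold change of 0.03 ± 0.05 (limma adjusted p = 0.641). The oxygen sensors, by contrast, both fell. EGLN3, a prolyl hydroxylase that HIFs themselves induce, had 289 and 294 normalized reads in LeptoM shCTL, against 580.5 and 552 in parental cells (-0.96 ± 0.11, limma adjusted p = 0.000259). EGLN1, the main sensor in most cells, fell by less (-0.59 ± 0.08).

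SLC2A3 had the largest absolute log2 fold change of the 41 members in PC9. This high-affinity glucose transporter had 440.4 and 384 normalized reads in LeptoM shCTL libraries, against 6129 and 5500.4 in parental libraries, a log2 fold change of -3.82 ± 0.29 (limma adjusted p = 4.02e-05). SLC2A1, the common glucose transporter, had 9815 and 9369 normalized reads in LeptoM shCTL, against 10334 and 10899 in parental cells, and was not called (-0.15 ± 0.06, limma adjusted p = 0.0799). The ratio of SLC2A3 to SLC2A1 values was thus 0.0449 and 0.0410 in LeptoM shCTL and 0.593 and 0.505 in parental cells, a ratio compared between libraries and not a comparison of the transporters' levels with each other. SLC16A3, the lactate exporter, had 4586 and 4526 against 4316 and 6376 and overlapped between the groups (-0.20 ± 0.16, not called), and it was called lower with each library's trend along gene GC content removed (-0.66, limma adjusted p = 0.000115).

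Among the genes for pH control, mitophagy, pyruvate use and blood vessel growth, CA9, BNIP3, PDK1 and VEGFA fell and CA12 rose. CA9, a membrane carbonic anhydrase that exports acid, had 55.1 and 52.8 normalized reads in LeptoM shCTL, against 179.6 and 176 in parental cells (-1.70 ± 0.20, limma adjusted p = 0.000355). CA12, its relative, rose (0.80 ± 0.12, limma adjusted p = 0.00131). BNIP3, a receptor that hands mitochondria to autophagy, had 537 and 597 against 1338 and 1323 (-1.23 ± 0.09, limma adjusted p = 3.21e-05). Its paralog BNIP3L had a log2 fold change of -0.01 ± 0.08 and overlapped between the groups. PDK1, a kinase that keeps pyruvate out of mitochondria by inhibiting pyruvate dehydrogenase, had 402 and 366 against 909.9 and 854 (-1.20 ± 0.17, limma adjusted p = 0.000741), while PDK3 was not called (-0.14 ± 0.12). VEGFA, the growth factor for blood vessels, had 3092 and 3021 against 4435 and 4577 (-0.56 ± 0.07, limma adjusted p = 0.000609). For CA9, BNIP3, PDK1 and VEGFA the LeptoM shCTL and parental libraries did not overlap, which also held for 78.2% of all genes tested in this comparison.

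The collagen-modifying enzymes P4HA1 (-0.95 ± 0.16) and P4HA2 (-0.52 ± 0.08), which hydroxylate proline in collagen, fell, and LOX, which cross-links collagen, had 23.9 and 26.4 normalized reads in LeptoM shCTL against 40.7 and 48.1 in parental cells and was not called (-0.79 ± 0.31, limma adjusted p = 0.0647). The histone demethylase gene KDM3A fell (-0.55 ± 0.11). DDIT4, an inhibitor of mTOR signalling, was called higher at the edge of the threshold (0.71 ± 0.25, limma adjusted p = 0.0497), and the call was lost when each library's trend along gene GC content was removed (0.38). The transcriptional repressors MXI1 (0.16) and BHLHE40 (-0.20), NDRG1 (0.55), ANKRD37 (-0.19) and the peptide hormone gene ADM (0.09) were not called.

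Along glycolysis in PC9, members of the first steps were called in either direction and all members of lower glycolysis fell. HK1, which phosphorylates glucose, and GPI, which isomerizes it, rose by 0.39 ± 0.08 and 0.41 ± 0.10, whereas HK2 (-0.06) and the phosphofructokinases PFKP (-0.19) and PFKL (0.24) were not called. PFKFB4, which sets the level of an activator of phosphofructokinase, fell (-0.88 ± 0.13), and PFKFB3, its paralog, was not called (-0.12). From aldolase on, ALDOC (-0.62 ± 0.19) and TPI1 (-0.35 ± 0.06) fell, ALDOA was not called (0.06), and GAPDH rose (0.23 ± 0.07, lost with the GC trend removed at 0.12). The members of lower glycolysis that fell were PGK1 (-0.37 ± 0.07), PGAM1 (-0.54 ± 0.06), ENO1 (-0.21 ± 0.06), ENO2 (-0.50 ± 0.10) and PKM (-0.27 ± 0.06), all 5 of 5. PGK1, the first enzyme of the pathway to yield ATP, had 31767 and 30362 normalized reads in LeptoM shCTL, against 42194 and 38267 in parental cells. LDHA, which reduces pyruvate to lactate, fell as well (-0.61 ± 0.09, limma adjusted p = 0.000993). The 17 enzymes together took 2.30% and 2.24% of gene reads in LeptoM shCTL libraries and 2.28% and 2.32% in parental libraries. GAPDH alone took 1.13% and 1.10% in LeptoM shCTL and 0.911% and 0.955% in parental libraries.

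Of the 24 calls in PC9, 18 held when any single library was left out and when the GC trend was removed. The other 6, DDIT4, GPI, ALDOC, GAPDH, ENO1 and PKM, were each lost without at least 1 library, so 3 of the 5 in lower glycolysis held. Per 100 reads on genes, PC9 parental replicate 2 had 42.4 that were not placed uniquely, while its fellow PC9 libraries had 18.1 to 20.6. The 4 mesenchymal markers (FN1, SPARC, VIM and ZEB1) summed to 6064 to 24145 over the PC9 LeptoM libraries, against 129447 and 119217 in the parental libraries, nearly all of it fibronectin (FN1), and their part in the results was not tested.

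**Figure D1:**
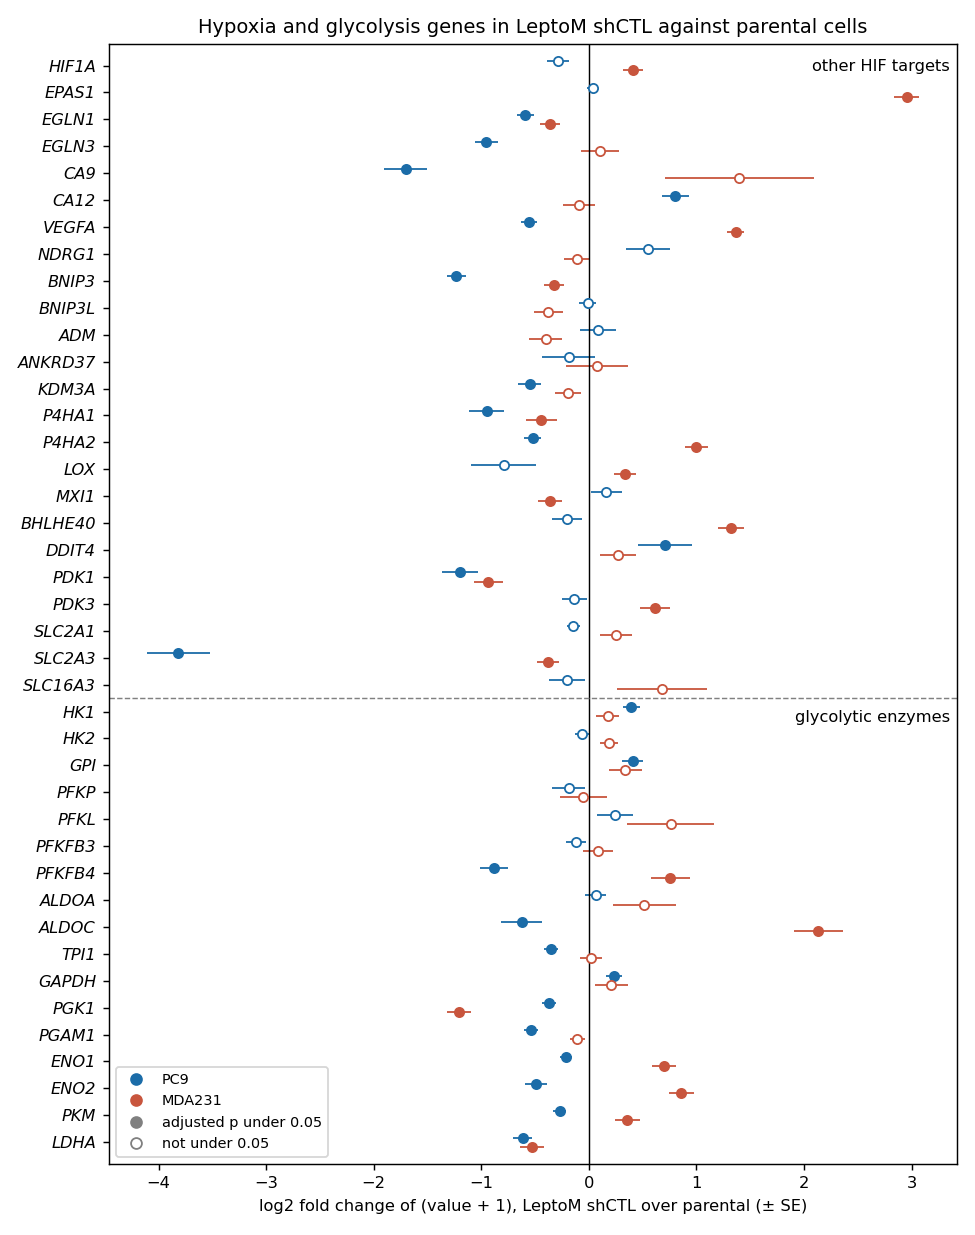
Log2 fold change of LeptoM shCTL over parental cells for each of the 41 members (down the page, enzymes apart from other HIF targets) in PC9 and MDA231, with standard errors from limma and 2 libraries a group. SLC2A3 stands at -3.82 in PC9, EPAS1 and ALDOC at 2.95 and 2.13 in MDA231, and PGK1 and LDHA lie below 0 in both lines.

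In MDA231 the same comparison split the members. LeptoM shCTL cells had more EPAS1, VEGFA and ALDOC and less PGK1 and PDK1 than parental cells. Of the 41, 12 rose, 8 fell and 21 were not called. The share called was 48.8%, beside 48.7% of all 14387 genes tested (24.8% higher, 23.8% lower), so it lay at the background. With the GC trend removed the split turned to 11 higher and 15 lower, beside 4481 higher and 4350 lower of the 14387 genes. The median log2 fold change was 0.21 over the enzymes (5 rose, 2 fell, 10 not called) and 0.09 over the other HIF targets (7 rose, 6 fell, 11 not called), or 0.08 without CA9, beside 0.04 over all genes. The parental libraries of MDA231 had lower depth than every LeptoM library, which cannot be told apart from the group, and all 20 calls held when reads were thinned to equal depth.

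EPAS1 had 2866 and 2709 normalized reads in MDA231 LeptoM shCTL libraries, against 397 and 325 in parental libraries, a log2 fold change of 2.95 ± 0.11 (limma adjusted p = 1.56e-05). HIF1A had 16908 and 18795 against 12604 and 14309 and rose by less (0.41 ± 0.10, 0.68 with the GC trend removed, limma adjusted p = 0.0122). EGLN1 fell (-0.36 ± 0.09, lost with the GC trend removed at -0.09), and EGLN3 had 112 and 109 against 90.8 and 116, overlapping between the groups (0.10 ± 0.18). CA9 was barely counted, with 10 and 3 reads in LeptoM shCTL libraries and 1 and 0 reads in parental libraries, so no fold change is given.

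VEGFA had 5318 and 5035 normalized reads in MDA231 LeptoM shCTL, against 2085 and 1939 in parental cells (1.36 ± 0.08, limma adjusted p = 5.82e-05). BHLHE40, a transcriptional repressor of the circadian and hypoxic programs, had 456 and 484 against 204 and 173 (1.32 ± 0.12, limma adjusted p = 0.000296). Neither gene's groups overlapped, as for 73.6% of all genes tested. P4HA2 rose (1.00 ± 0.11) and so did LOX (0.34 ± 0.10, 0.56 with the GC trend removed), while P4HA1 fell (-0.44 ± 0.14, lost with the GC trend removed at -0.16). The pyruvate dehydrogenase kinases moved in opposite directions, PDK3 higher (0.62 ± 0.14) and PDK1 lower, at 277 and 318 normalized reads in LeptoM shCTL against 542 and 596 in parental cells (-0.93 ± 0.13, limma adjusted p = 0.00164). MXI1 (-0.36 ± 0.11), BNIP3 (-0.32 ± 0.09, -0.52 with the GC trend removed) and SLC2A3 (-0.38 ± 0.10) fell by small amounts.

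Among the enzymes of MDA231, ALDOC, ENO2, ENO1, PFKFB4 and PKM rose and PGK1 and LDHA fell. With the GC trend removed the balance of the enzymes turned, to 4 higher and 7 lower, beside 4481 higher and 4350 lower of all genes. ALDOC, an aldolase isoform, had 88.0 and 80.4 normalized reads in LeptoM shCTL, against 22.7 and 14.9 in parental cells (2.13 ± 0.23, limma adjusted p = 0.000548), and ENO2, an enolase, rose by 0.86 ± 0.12 (0.50 with the GC trend removed). ENO1 (0.70 ± 0.11), PFKFB4 (0.76 ± 0.18, 0.50 with the GC trend removed) and PKM (0.36 ± 0.11, lost with the GC trend removed at 0.07) rose as well. PGK1 fell furthest of the enzymes, at 19735 and 21221 in LeptoM shCTL against 42704 and 52303 in parental cells (-1.21 ± 0.11, limma adjusted p = 0.00028). LDHA, the step that regenerates the cofactor for GAPDH, also fell (-0.53 ± 0.11). The enzymes together took 1.83% and 1.70% of gene reads in LeptoM shCTL libraries and 1.66% and 1.43% in parental libraries. Of the 20 calls, 9 held when any single library was left out and when the GC trend was removed: the subunit EPAS1, the HIF targets VEGFA, BHLHE40, P4HA2 and PDK1, and the enzymes ALDOC, ENO1, ENO2 and PGK1. Leaving out either shCTL library lost calls both among the members and over all genes. SPARC, a matrix protein listed as a mesenchymal marker, stood at 2.28 to 9.34 over the MDA231 LeptoM libraries and at 2473 and 2631 in the parental libraries, while the 4 mesenchymal markers summed to 212788 to 236148 over LeptoM and to 194829 and 188350 in parental libraries, and their part in the results was not tested.

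Set beside each other, the lines had 7 members that fell in both: BNIP3, EGLN1, LDHA, P4HA1, PDK1, PGK1 and SLC2A3, which are 7 of the 19 that fell in PC9 and 7 of the 8 that fell in MDA231. The 5 that rose in PC9 and the 12 that rose in MDA231 had no member in common. Another 7 were called in opposite directions (ALDOC, ENO1, ENO2, P4HA2, PFKFB4, PKM and VEGFA). A further 10 were called in PC9 alone, 6 in MDA231 alone and 11 in neither, which does not by itself show a difference between the lines. Of all genes tested, 21.8% fell and 23.8% rose in PC9, and 23.8% fell and 24.8% rose in MDA231. The shares of all genes that moved alike or oppositely in the lines are not given here, so these overlaps are a description of the members. The difference itself, the PC9 log2 fold change minus that of MDA231, was called for 22 of the 41 (53.7%, 4 above 0 and 18 below 0), beside 47.3% of the 13392 genes tested in both tables. That background holds both directions, and its split by direction is not given here. Among the 22 members were VEGFA, at -0.56 in PC9 and 1.36 in MDA231, ALDOC, at -0.62 and 2.13, and SLC2A3, which fell in both but by -3.82 in PC9 and -0.38 in MDA231. PGK1 fell more in MDA231 (-1.21) than in PC9 (-0.37), and the difference was called. The fall of PDK1 was near in size in both (-1.20 in PC9 and -0.93 in MDA231), and its difference was not called. Without the GC trend, 29 of the 41 differences were called, 20 of the 22 among them, and TPI1 and PGAM1 were lost. The matching share of all genes is not given here.

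**Figure D2:**
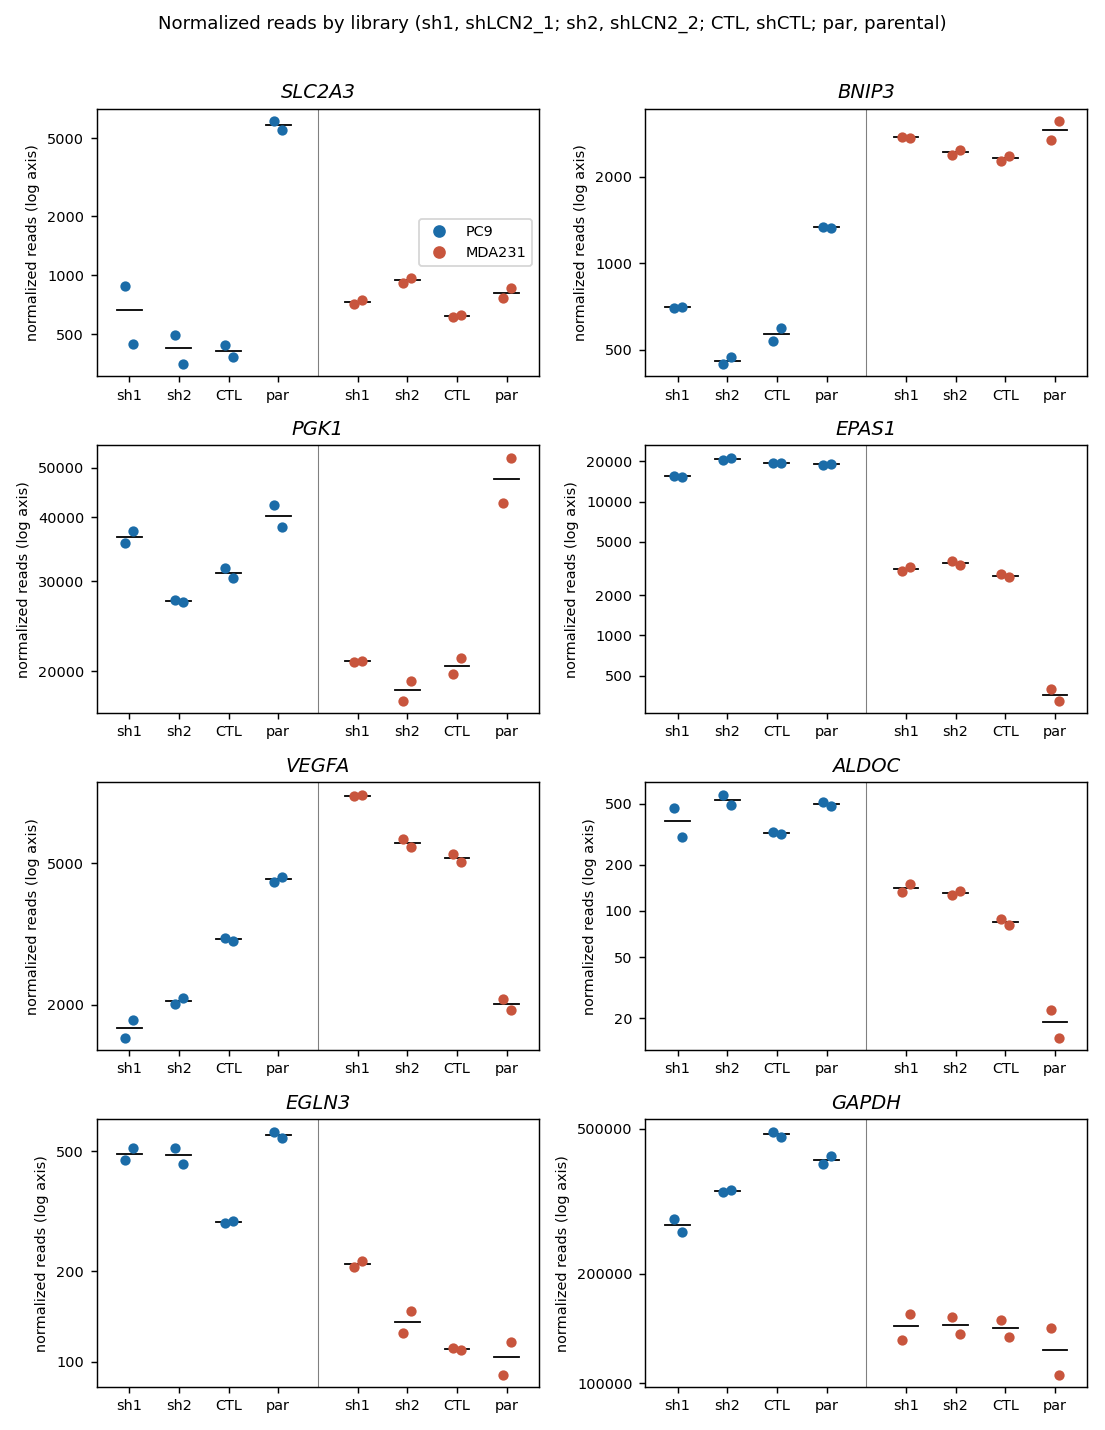
Normalized reads (log axis) in each library of SLC2A3, BNIP3, PGK1, EPAS1, VEGFA, ALDOC, EGLN3 and GAPDH for both lines, with groups shLCN2_1, shLCN2_2, shCTL and parental from left to right and 1 point a library. In PC9, SLC2A3 lies between 353 and 882 in the 6 LeptoM libraries and at 5500.4 or more in both parental libraries, and in MDA231 EPAS1 lies at 2709 or more in the 6 LeptoM libraries and at 397 or less in both parental libraries. Horizontal bars mark group means.

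In PC9, depletion of LCN2 with shLCN2_1 went with lower values of the phosphofructokinases, ALDOA, the lactate exporter SLC16A3 and VEGFA and with higher values of LOX, KDM3A and EGLN3. Of these genes, only VEGFA, KDM3A and EGLN3 were also called with shLCN2_2, in the same directions. Of the 41 members, 9 rose, 15 fell and 17 were not called relative to LeptoM shCTL, a share called of 58.5%, beside 44.2% of all genes tested (18.8% higher, 25.3% lower). The median was -0.30 over the enzymes (1 rose, 9 fell, 7 not called) and 0.16 over the other HIF targets (8 rose, 6 fell, 10 not called), beside 0.03 over all genes. The 5 epithelial markers summed to 445964 and 442925 normalized reads with shLCN2_1, against 744676 and 706202 with shCTL, while singly 2 were called higher and 3 lower. The 4 mesenchymal markers summed to 6064 and 24145, against 16775 and 16656, and the part of these markers in the results was not tested. Base composition moved with this comparison. Across the 41 members the Spearman correlation of log2 fold change with GC content of the gene's transcripts was -0.794, a description over genes of the same 4 libraries. Expression relative to the table mean fell with GC content across all genes in the shLCN2_1 libraries (Spearman -0.549 and -0.645) and rose with it in the shCTL libraries (0.463 and 0.363). The median GC content is 55.7% for the enzymes, 50.8% for the other HIF targets and 49.9% for all PC9 genes tested. With each library's trend along GC content removed, 8 members were higher and 8 lower: 2 enzymes higher and 6 lower, and 6 other HIF targets higher and 2 lower. Of all 15650 genes tested, 1922 were then called higher and 1968 lower.

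PFKL, the liver-type phosphofructokinase, had 973 and 922 normalized reads with shLCN2_1, against 3533 and 3308 with shCTL (-1.85 ± 0.16, limma adjusted p = 0.000168), and kept -0.56 with the GC trend removed. PFKP, the platelet-type isoform, had 3787 and 5213 against 10499 and 9995 (-1.20 ± 0.15, -0.67 with the GC trend removed). ALDOA, the main aldolase, had 37390.3 and 31637 against 81219 and 76404 (-1.20 ± 0.10, -0.42 with the GC trend removed). For each of these enzymes the shLCN2_1 libraries lay below both shCTL libraries, as was the case without overlap in either direction for 71.8% of all genes tested. SLC16A3, which carries lactate out of the cell, had 1499 and 1257 against 4586 and 4526 (-1.73 ± 0.16, limma adjusted p = 0.000172), and its fall shrank to -0.27 with the GC trend removed (limma adjusted p = 0.0157). GAPDH had a log2 fold change of -0.83 ± 0.07 (-0.30 with the GC trend removed) and took 0.699% and 0.643% of gene reads with shLCN2_1 against 1.13% and 1.10% with shCTL.

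VEGFA had 1618 and 1818 normalized reads with shLCN2_1, against 3092 and 3021 with shCTL (-0.83 ± 0.07, -0.32 with the GC trend removed). LOX had 104 and 57.3 against 23.9 and 26.4 and rose (1.58 ± 0.31, limma adjusted p = 0.00387, 1.35 with the GC trend removed), with its shLCN2_1 libraries far apart from each other. KDM3A (0.82 ± 0.11) and EGLN3 (0.75 ± 0.11, 468 and 513 normalized reads with shLCN2_1 against 289 and 294 with shCTL) rose with and without the GC trend. MXI1, BNIP3 and P4HA2 rose as well, by 0.63 ± 0.14, 0.31 ± 0.09 and 0.31 ± 0.08. EPAS1 had 15572 and 15321 against 19529 and 19382 and fell (-0.33 ± 0.05), a call lost with the GC trend removed (-0.03). HIF1A (17708 and 22629.5 with shLCN2_1) and CA9 (43.0 and 54.0 with shLCN2_1) overlapped with shCTL and were not called.

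Most of the remaining calls with shLCN2_1 were lost or changed sign with the GC trend removed. Calls that held had also shrunk, as for SLC16A3, PFKL and ALDOA above. PGK1, BNIP3L and P4HA1 were called higher (0.24, 0.32 and 0.52) and were no longer called with the GC trend removed (0.03, 0.12 and 0.28). DDIT4 (-0.95), GPI (-0.54), ADM (-0.52), SLC2A1 (-0.48), PFKFB3 (-0.33) and TPI1 (-0.30) were called lower and changed sign with the trend removed, to 0.18, 0.05, 0.23, 0.02, 0.35 and 0.04, PFKFB3 then being called higher. ENO1 (-0.43) and HK1 (-0.39) were called lower both ways. Calls were also lost when the first shCTL library was left out, both among the members and over all genes. In all, 11 of the 24 calls held when any single library was left out and when the GC trend was removed: PFKP, PFKL, ALDOA, GAPDH, ENO1 and HK1 among the enzymes, and SLC16A3, VEGFA, LOX, KDM3A and EGLN3 among the other HIF targets.

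**Figure D3:**
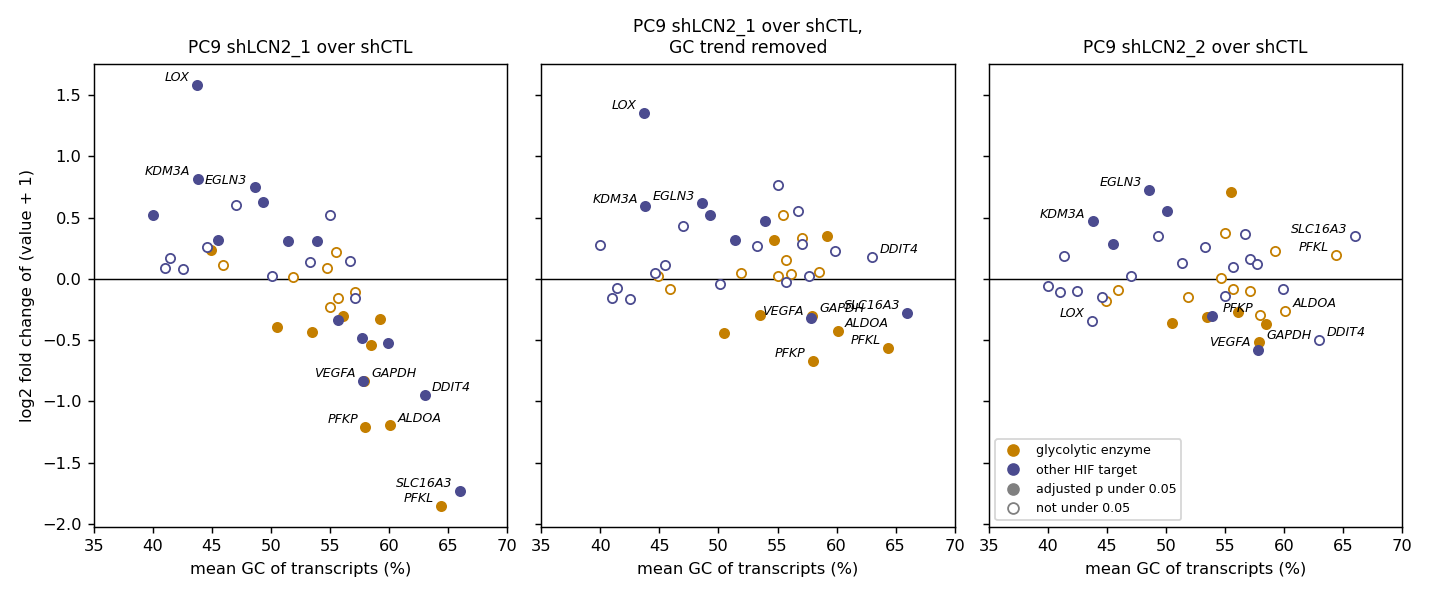
Log2 fold change over shCTL (vertical axis) against GC content of the gene's transcripts in percent (horizontal axis) for the 41 members in PC9: shLCN2_1, shLCN2_1 with each library's GC trend removed, and shLCN2_2, with enzymes and other HIF targets in separate colours. The shLCN2_1 points run downwards with GC content (Spearman -0.794), and those of shLCN2_2 show a much flatter course (Spearman -0.144).

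With all libraries of the line in the fit, fewer members were called with the second hairpin in PC9 than with the first. With shLCN2_2, 5 members rose, 7 fell and 29 were not called relative to shCTL, a share called of 29.3%, beside 19.5% of all genes tested (9.81% higher, 9.7% lower). The enzymes had a median of -0.15 (1 rose, 5 fell, 11 not called) and the other HIF targets of 0.11 (4 rose, 2 fell, 18 not called). With the GC trend removed, 14 members were called (6 higher, 8 lower), beside 1924 higher and 1787 lower of all 15650 genes. That setting gave 16 members with shLCN2_1, so the counts of the hairpins were then close. VEGFA had 2013 and 2088 normalized reads with shLCN2_2, against 3092 and 3021 with shCTL, and fell (-0.58 ± 0.07, limma adjusted p = 0.0029). EGLN3 had 513 and 455 against 289 and 294 and rose (0.73 ± 0.11, limma adjusted p = 0.00441). ALDOC (0.71 ± 0.19), CA12 (0.55 ± 0.12), KDM3A (0.47 ± 0.11) and BNIP3L (0.29 ± 0.08) rose too. GAPDH (-0.52 ± 0.07), GPI (-0.37 ± 0.10), HK1 (-0.36 ± 0.08), ENO1 (-0.31 ± 0.06), TPI1 (-0.27 ± 0.06) and BNIP3 (-0.30 ± 0.09) fell. GAPDH took 0.804% and 0.819% of gene reads with shLCN2_2 against 1.13% and 1.10% with shCTL. VEGFA was the only one of the 12 still called whichever single library was left out. Most of the other calls were lost when any 1 of the shCTL or shLCN2_2 libraries was left out, and calls over all genes dropped as well. With the shLCN2_1 group left out (chosen after seeing the data), 22 members were called, beside 5429 of all 15650 genes. With only the 2 groups compared, 29 members were called, beside 8045 of all genes.

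Side by side, with the shCTL libraries shared, the log2 fold changes with shLCN2_1 and shLCN2_2 were 0.75 and 0.73 for EGLN3, 0.82 and 0.47 for KDM3A, -0.83 and -0.58 for VEGFA, -0.83 and -0.52 for GAPDH, and 0.31 and -0.30 for BNIP3. Without the GC trend, VEGFA stood at -0.32 and -0.63, GAPDH at -0.30 and -0.58 and BNIP3 at 0.48 and -0.29. Before that trend was removed, PFKL, PFKP, ALDOA, SLC16A3 and LOX were called against shCTL with shLCN2_1 and not with shLCN2_2. With shLCN2_2, SLC16A3 stood at 0.35, and PFKL had 3954 and 3888 normalized reads against 3533 and 3308 with shCTL. PFKP, ALDOA and LOX lay below shCTL. The hairpins were also set against each other. Relative to shLCN2_2, 6 members were higher with shLCN2_1, 11 were lower and 24 were not called, a share called of 41.5%, beside 54.5% of all genes tested (25.6% higher, 28.9% lower). With the GC trend removed 11 members were higher and 6 lower, beside 2568 higher and 2690 lower of all 15650 genes. SLC16A3 (-2.08 ± 0.16, -0.35 with the GC trend removed), PFKL (-2.05 ± 0.16, -0.53) and PFKFB4 (-0.61 ± 0.13, -0.35) were lower with shLCN2_1, and LOX (1.93 ± 0.31, 1.63) and BNIP3 (0.61 ± 0.09, 0.76) higher. These 5 were called whichever library was left out and with the trend removed. LOX had 104 and 57.3 normalized reads with shLCN2_1 against 20.1 and 19.1 with shLCN2_2. BNIP3 had 698 and 705 against 447 and 470.2. VEGFA and GAPDH were lower with shLCN2_1 than with shLCN2_2 (-0.26 and -0.31), and turned higher, still called, with the GC trend removed (0.31 and 0.28). LCN2 itself was lower with shLCN2_1 than with shLCN2_2 (limma, adjusted p = 0.000346).

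The 17 enzymes together took 1.71% and 1.67% of PC9 gene reads with shLCN2_1 and 1.86% and 1.86% with shLCN2_2, against 2.30% and 2.24% with shCTL. Neither hairpin brought SLC2A3, CA9 or PDK1 near the parental values: SLC2A3 had 882 and 444 normalized reads with shLCN2_1 and 493 and 353 with shLCN2_2, against 6129 and 5500.4 in parental cells, and none of these genes was called against shCTL by limma with either hairpin. EGLN3, which was lower in LeptoM shCTL than in parental cells, was higher with both hairpins than with shCTL and reached 455 to 513 normalized reads, beside 580.5 and 552 in parental cells. VEGFA, also lower in LeptoM shCTL than in parental cells, was lower still with both hairpins. These comparisons share the shCTL libraries and are given side by side.

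**Figure D4:**
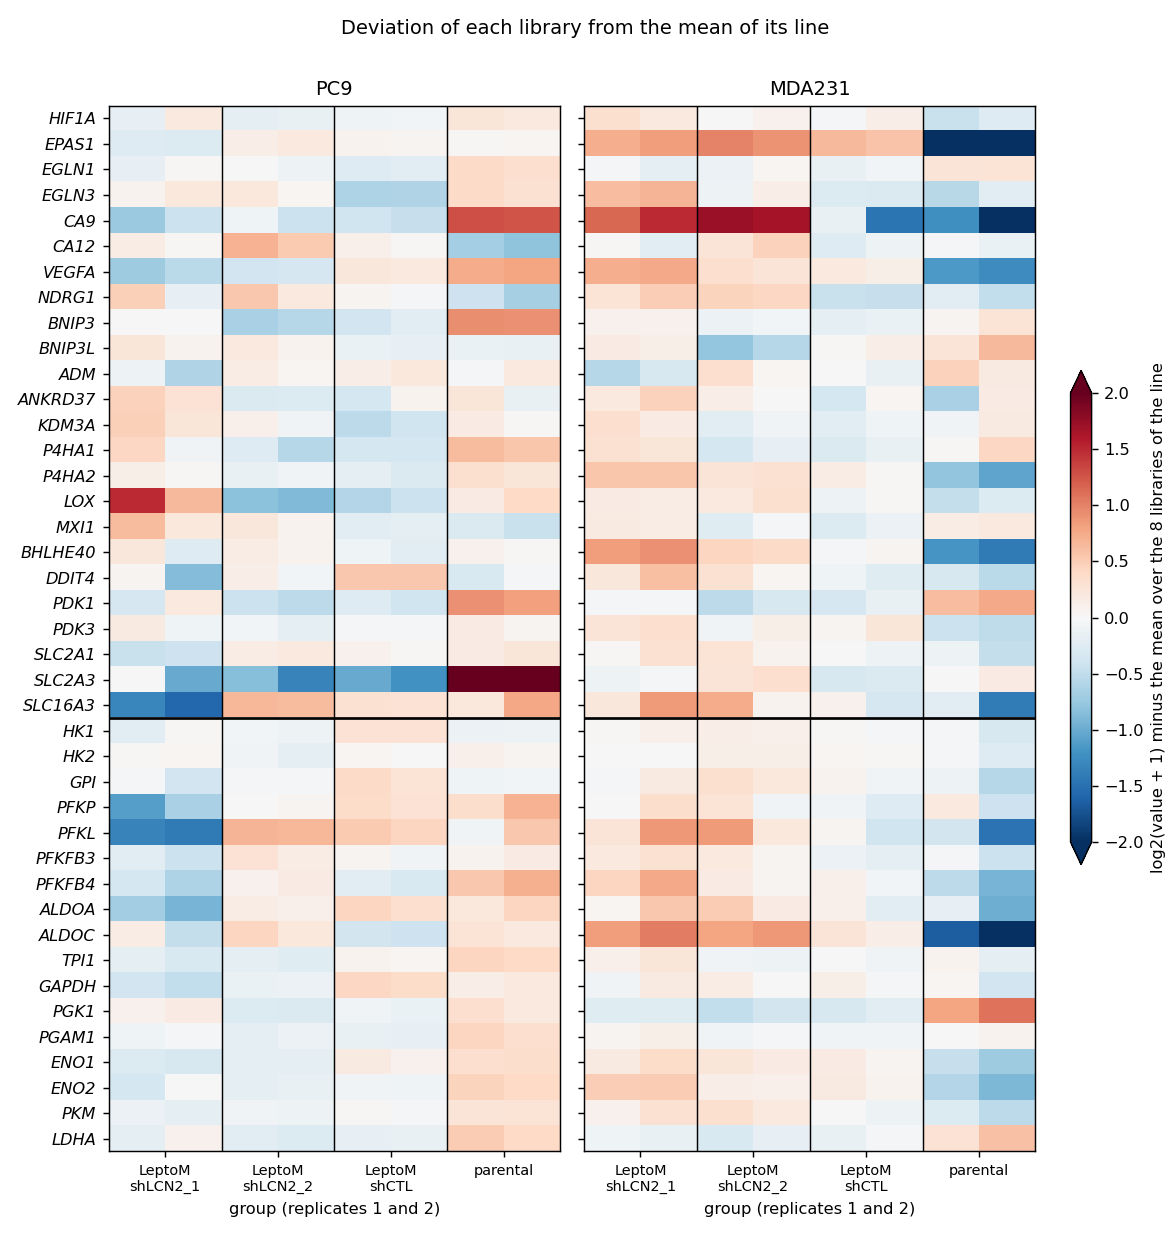
Log2 deviation of each member (down the page) from its mean over the 8 libraries of its line, with 1 column a library in the groups shLCN2_1, shLCN2_2, shCTL and parental from left to right for PC9 and MDA231. SLC2A3, CA9, BNIP3 and PDK1 are highest in the parental libraries of PC9, PFKL and SLC16A3 are lowest in its shLCN2_1 libraries, and EPAS1 and ALDOC are lowest in the parental libraries of MDA231.

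In MDA231, where LCN2 was scarcely counted with any hairpin, few members differed between the hairpins and shCTL. With shLCN2_1, 3 rose, 0 fell and 38 were not called by limma (0 were called lower by edgeR or DESeq2 either), beside 0.841% of all genes called (0.389% higher, 0.452% lower), and 15 members were higher and 1 lower at an unadjusted p under 0.05, where 6.15% of all genes were higher and 7.82% lower. BHLHE40 had 834 and 875 normalized reads with shLCN2_1, against 456 and 484 with shCTL (0.86 ± 0.12, limma adjusted p = 0.0346). NDRG1, a stress-responsive target of HIFs, lay at 2573 and 2985 against 1556 and 1537 (0.84 ± 0.12, limma adjusted p = 0.0358). VEGFA lay at 7705 and 7793 against 5318 and 5035 (0.58 ± 0.08, limma adjusted p = 0.0301) and was not called with the GC trend removed (0.40, limma adjusted p = 0.0755). EGLN3 had 206 and 217 against 112 and 109 and was not called (0.93 ± 0.18, limma adjusted p = 0.074). CA9 had 29 and 38 reads with shLCN2_1 and 40 and 39 with shLCN2_2, against 10 and 3 with shCTL, and was not called with either hairpin (limma adjusted p = 0.247 and 0.212).

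With shLCN2_2 in MDA231, NDRG1 alone was called, at 2884 and 2844 normalized reads against 1556 and 1537 with shCTL (0.89 ± 0.12, limma adjusted p = 0.0373), beside 0.521% of all genes called (0.139% higher, 0.382% lower), and 9 members were higher and 1 lower at an unadjusted p under 0.05, where 5.25% of all genes were higher and 8.74% lower. BNIP3L, at 2747 and 3164 with shLCN2_2 against 4759 and 5164 with shCTL, was not called (-0.75 ± 0.14, limma adjusted p = 0.0804). Between the hairpins, BNIP3L (0.81 ± 0.14) and VEGFA (0.44 ± 0.08) were higher with shLCN2_1 than with shLCN2_2, beside 2.69% of all genes called (1.52% higher, 1.17% lower). Of the 17 enzymes, 0 were called in any of these 3 comparisons by limma, by edgeR or by DESeq2, whereas at an unadjusted p under 0.05 limma had 4 higher with shLCN2_1, 2 higher with shLCN2_2 and 3 higher between the hairpins, where 6.15%, 5.25% and 9.14% of all genes were higher. Each of these calls on members was lost when any 1 LeptoM library was left out. Without the parental group, whose spread enters the shared estimate, 9 members were called with shLCN2_1, 4 with shLCN2_2 and 8 between the hairpins. Calls over all genes rose as well, to 659, 376 and 1204 of 14387 genes in the same order, from 121, 75 and 387. Leaving that group out was chosen after seeing the data. With the GC trend removed, 13 members were called with shLCN2_1 (11 higher, 2 lower), 10 with shLCN2_2 (7 higher, 3 lower) and 18 between the hairpins (15 higher, 3 lower). Of all 14387 genes, 644, 401 and 1459 were then higher and 692, 635 and 1161 lower, in the same order. The enzymes took 1.84% and 2.04% of gene reads with shLCN2_1 and 1.97% and 1.86% with shLCN2_2, against 1.83% and 1.70% with shCTL.

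The effect of the hairpins on VEGFA differed between the lines by the test of the difference. Its log2 fold change over shCTL was lower in PC9 than in MDA231 by -1.42 with shLCN2_1 and -0.72 with shLCN2_2, and these differences stayed called without the GC trend, at -0.72 (adjusted p = 0.00307) and -0.55 (adjusted p = 0.0121), from the limma effects with Benjamini-Hochberg adjustment. Over the members, the difference was called for 21 with shLCN2_1 (51.2%, 1 above 0 and 20 below 0) beside 40.2% of all genes, and for 3 with shLCN2_2 (7.32%) beside 6.88% of all genes. These shares of all genes hold both directions, and their split by direction is not given here. With the GC trend removed, 11 members were called with shLCN2_1, and the matching share of all genes is not given here. With 1 library of the same group and number left out in each line, the shLCN2_1 count was 13 without shCTL replicate 1, 1 without shCTL replicate 2 and 13 without shLCN2_1 replicate 2. The shLCN2_2 count was 0 without shCTL replicate 2 or shLCN2_2 replicate 1, 6 without either shLCN2_1 replicate and 10 without either parental replicate.

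Other genes of the same pathways were followed from lists chosen by function with earlier results known. In PC9 LeptoM shCTL against parental cells, 6 of 34 other hypoxia genes tested (35 listed) rose and 12 fell (median -0.11), beside 23.8% and 21.8% of all genes, among them STC1 (-2.22 ± 0.27), a secreted calcium regulator, and PLOD2 (-1.39 ± 0.07) and LOXL2 (-1.98 ± 0.27), which modify and cross-link collagen. Of 34 other genes of glucose metabolism tested (40 listed) 15 rose and 9 fell (median 0.27), led by FBP1 (2.61 ± 0.07), which runs a gluconeogenic step against phosphofructokinase, and the transporters SLC2A12 (1.10 ± 0.20) and SLC16A7 (0.97 ± 0.20). In MDA231 the same comparison had 8 other hypoxia genes higher and 11 lower (median 0.03), beside 24.8% and 23.8% of all genes, with IGFBP3 at -1.89 ± 0.07, PLOD1 at 1.17 ± 0.20, STC1 at 1.08 ± 0.09 and GYS1 at 0.83 ± 0.21. It had 9 genes of glucose metabolism higher and 12 lower (median -0.23), and the 4 largest changes named by size were all higher, with PDK4 at 2.26 ± 0.21, PC, which makes oxaloacetate from pyruvate, at 1.75 ± 0.40, PGLS at 1.18 ± 0.32 and G6PC3 at 1.16 ± 0.23. STC1 was thus lower in PC9 LeptoM shCTL and higher in MDA231 LeptoM shCTL than in the parental lines. With the GC trend removed, PC9 had 6 hypoxia genes higher and 12 lower, and 13 genes of glucose metabolism higher and 9 lower. MDA231 then had 9 hypoxia genes higher and 14 lower, and 10 genes of glucose metabolism higher and 14 lower. Of all genes, 3689 were then higher and 3797 lower in PC9, and 4481 and 4350 in MDA231. Single genes of these lists are not given without the trend for this comparison.

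With shLCN2_1 in PC9, where 18.8% of all genes were called higher and 25.3% lower, 7 other hypoxia genes rose and 8 fell, among them MIF (-2.83 ± 0.29), LOXL2 (-1.14 ± 0.27) and KDM4B (-1.01 ± 0.20), and 7 genes of glucose metabolism rose and 11 fell, among them PGLS (-1.21 ± 0.11), PC (-1.18 ± 0.10) and PYGB (-1.06 ± 0.11). Removing the GC trend left 7 hypoxia genes higher and 5 lower and 8 genes of glucose metabolism lower, beside 1922 higher and 1968 lower of all 15650 genes. MIF, PC and PYGB kept their calls at -1.26, -0.46 and -0.52, while LOXL2 (-0.35), KDM4B (-0.21) and PGLS (0.002) lost theirs. With shLCN2_2, where 9.81% of all genes were called higher and 9.7% lower, 5 other hypoxia genes rose and 2 fell, with ANGPTL4 at 1.09 ± 0.32, CCNG2 at 1.06 ± 0.21, GYS1 at 0.54 ± 0.09 and STC2 at -1.01 ± 0.07. In glucose metabolism 3 rose and 8 fell, with SLC2A12 at 1.00 ± 0.20, HKDC1 at -0.72 ± 0.10 and LDHB at -0.63 ± 0.06. Between the hairpins, MIF (-3.28 ± 0.29) and PGLS (-1.45 ± 0.11) were lower with shLCN2_1 than with shLCN2_2, at -1.41 and -0.036 with the GC trend removed, where PGLS was not called. In MDA231, 2 other hypoxia genes were called higher and 1 lower with shLCN2_1, and 1 lower with shLCN2_2, beside 0.389% and 0.452% of all genes with shLCN2_1 and 0.382% lower with shLCN2_2. CXCR4, a chemokine receptor, rose with shLCN2_1 (1.17 ± 0.09) and IGFBP3 fell with shLCN2_1 (-0.94 ± 0.07) and shLCN2_2 (-0.71 ± 0.07). Of the 34 other genes of glucose metabolism 0 were called with either hairpin by limma or edgeR, and DESeq2 called 1 lower with each. At an unadjusted p under 0.05 limma had 1 higher and 6 lower with shLCN2_1 and 2 higher and 2 lower with shLCN2_2. Of all genes, 6.15% were higher and 7.82% lower at that threshold with shLCN2_1, and 5.25% and 8.74% with shLCN2_2.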

How the data were processed

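Libraries were made from polyadenylated RNA with a stranded kit, per the labels' protocols. Per the submitters' processing notes, HTSeq 0.5.3, DESeq2 1.22.1 and the hg19 build were used. The aligner, annotation and the use of strand in counting are not given in the sources used here. Reads of a gene and of an antisense partner thus cannot be told apart. The deposited signal values are gene reads divided by a size factor, 1 table per line: 100% of 155632 PC9 and 143632 MDA231 gene values came out within 0.001 of a whole read. 4 lines of the PC9 table that name no gene were left out. Near-identical processed copies could have taken reads, listed copies holding up to 3.48% of the reads of LDHA and at most 0.98% of those of the other members.

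The main test was limma 3.58.1 (R 4.3.3) on log2(value + 1), genes with a mean of at least 10, all 4 groups of a table in 1 fit with a mean-variance trend, and Benjamini-Hochberg adjustment over all genes tested. The line difference divides the PC9 minus MDA231 effect by the root of the summed squared standard errors. edgeR 4.0.16 and DESeq2 1.42.0 were run on the recovered reads. Whole reads per library limit the precision to counting error and the spread between libraries, and replicates of every group differed by more than sampling noise (chi-square per degree of freedom 2.94 to 39.9). GC content came from GENCODE transcripts matched by gene ID for 97.6% and 97.9% of genes tested. The fit was tested on simulated data.

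Values per library are given for HIF1A, EPAS1, EGLN3, CA9 and members called with an absolute log2 fold change of at least 1 in any comparison, with others by range or added after their values were seen (SLC2A1, NDRG1, BNIP3L). Of the other pathway genes, up to 4 called genes per list and comparison were eligible, and some of these are not reported here. Members and lists were chosen with earlier results of these data known.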

Additional observations from a re-analysis of the deposited data

Results flagged for a closer look

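The comparisons listed here gave different log2 fold changes in the lines by the test of the difference (PC9 minus MDA231, limma effects, Benjamini-Hochberg adjusted p under 0.05), and no cause was tested. Values are the PC9 log2 fold change minus the MDA231 one. The hairpin differences were tested after the data were seen.

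For LeptoM shCTL over parental cells, the HIF subunits and sensors differed by -0.70 (HIF1A), -2.92 (EPAS1) and -1.06 (EGLN3). Among other HIF targets the difference was 0.90 for CA12, -1.92 for VEGFA, 0.66 for NDRG1, -0.91 for BNIP3, -1.52 for P4HA2, -1.13 for LOX, 0.52 for MXI1, -1.52 for BHLHE40, -0.75 for PDK3 and -3.44 for SLC2A3. Among the enzymes it was -1.64 for PFKFB4, -2.76 for ALDOC, -0.37 for TPI1, 0.84 for PGK1, -0.43 for PGAM1, -0.91 for ENO1, -1.36 for ENO2 and -0.63 for PKM. Without the GC trend, TPI1 (-0.13, adjusted p = 0.146) and PGAM1 (-0.23, adjusted p = 0.0729) were no longer called. CA9 passed the same test, with 1 and 0 reads in the MDA231 parental libraries, so its value is left out.

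For shLCN2_1 over shCTL, the subunit EPAS1 differed by -0.50. Other HIF targets differed by -2.28 (CA9, with 10 and 3 reads in MDA231 shCTL), -1.42 (VEGFA), -0.69 (NDRG1), 1.39 (LOX), -0.72 (BHLHE40), -1.52 (DDIT4), -0.69 (SLC2A1) and -2.40 (SLC16A3). The enzymes differed by -0.46 (HK1), -0.61 (GPI), -1.55 (PFKP), -2.58 (PFKL), -0.72 (PFKFB3), -0.80 (PFKFB4), -1.53 (ALDOA), -0.51 (TPI1), -0.85 (GAPDH), -0.60 (ENO1), -0.49 (ENO2) and -0.40 (PKM). With the GC trend removed, 9 of these 21 stayed called (EPAS1 and CA9 among the 12 lost), and ADM and HIF1A were called in addition. For shLCN2_2 over shCTL, VEGFA (-0.72), BNIP3L (1.04) and HK1 (-0.48) differed.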

How the results depend on the processing

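Of 2383 values of named members under the alternatives, 2049 kept their direction and side of the threshold, 256 kept the direction and lost the call, 37 gained it and 41 changed sign. The causes were not tested except where fewer libraries or groups entered. With all libraries, 7138, 6910, 3053 and 8529 genes and 24, 24, 12 and 17 members were called in PC9 for LeptoM shCTL over parental, shLCN2_1 over shCTL, shLCN2_2 over shCTL and shLCN2_1 over shLCN2_2. In MDA231 the same order gave 7001, 121, 75 and 387 genes and 20, 3, 1 and 2 members. Leaving out 1 library gave 4161 to 8889, 3866 to 8173, 361 to 5469 and 5817 to 9453 genes and 19 to 29, 15 to 29, 1 to 22 and 13 to 24 members in PC9. In MDA231 it gave 3486 to 9081, 0 to 674, 0 to 366 and 8 to 1225 genes and 11 to 30, 0 to 9, 0 to 4 and 0 to 8 members. Line differences were called for 17 to 28 (22 with all), 1 to 22 (21) and 0 to 10 (3) members.

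Removing the GC trend gave 3890 genes for shLCN2_1 and 5258 between the hairpins in PC9. In MDA231 it gave 1336, 1036 and 2620 genes and 13, 10 and 18 members for shLCN2_1, shLCN2_2 and between the hairpins, and line differences for 11 and 10 members. In PC9 the replicate numbers do not pair the libraries (correlations of deviations -0.024 to 0.083). In MDA231 these correlations were 0.364 to 0.445 among parental, shCTL and shLCN2_2 and -0.589 to -0.408 between shLCN2_1 and those groups. The numbers thus do not pair all 4 groups there, and the source of that shared spread was not tested. With the replicate block, MDA231 had 47, 1 and 178 genes and 0, 0 and 1 members, and in PC9 no count moved by more than 1.5 times. With the block and the GC trend removed, PC9 had 3540 and 4980 genes, MDA231 1202, 906 and 2436 genes and 12, 8 and 17 members, and the line differences 11 and 10 members.

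In PC9 shLCN2_2, only the 2 groups compared gave 8045 genes and 29 members, and leaving out the shLCN2_1 group (chosen after seeing the data) 5429 and 22. In MDA231, only 2 groups gave 4382 genes and 10 members for LeptoM shCTL over parental, 384 and 6 for shLCN2_1, and 204 and 3 for shLCN2_2. For shLCN2_1, shLCN2_2 and between the hairpins in MDA231, edgeR called 297, 188 and 687 genes, with 3 members for shLCN2_2. DESeq2 called 483, 350 and 819 genes and 5, 3 and 5 members. Thinned reads gave 60, 30 and 180 genes, with 1 member for shLCN2_1 and 1 between the hairpins. Leaving out the parental group (chosen after seeing the data) gave 659, 376 and 1204 genes and 9, 4 and 8 members. The shLCN2_2 line difference was called for 5 members with pseudocount 4 and for 5 with TMM scaling. In the other comparisons edgeR called 7211, 7694, 3315 and 9175 genes in PC9 and 6701 in MDA231.

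Signs changed as follows, with the same value under the block where the GC trend was removed. In PC9 LeptoM shCTL over parental, EPAS1 was -0.0203 with the GC trend removed. In PC9 shLCN2_1, that alternative gave -0.16 for HIF1A, 0.0538 for GPI, 0.28 for CA9, 0.04 for TPI1, 0.0233 for SLC2A1, 0.23 for ADM, 0.18 for DDIT4 and 0.35 for PFKFB3, and leaving out 1 library gave -0.0893 to 0.2644 for HIF1A and -0.3202 to 0.0008 for CA9. In PC9 shLCN2_2, CA9 ranged from -0.0066 to 0.336 with 1 library left out. Between the PC9 hairpins, removing the GC trend gave -0.13 for HIF1A, 0.16 for CA9, 0.28 for GAPDH, 0.31 for VEGFA, -0.16 for EGLN3 and 0.21 for PFKFB3, and EGLN3 ranged from -0.0661 to 0.1079 with 1 library left out. In MDA231 LeptoM shCTL over parental, EGLN3 ranged from -0.0731 to 0.2798 with 1 library left out and was -0.0165 with thinned reads. In MDA231 shLCN2_2, HIF1A was 0.13 with the GC trend removed and ranged from -0.1012 to 0.0514 with 1 library left out. With upper-quartile scaling the median over all genes was 0.13 in PC9 shLCN2_1, 0.11 between the PC9 hairpins and 0.12 in MDA231 LeptoM shCTL over parental. With 2 libraries a group, differences within the spread between libraries were not detectable.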
